A study of Mus musculus with 9 samples.

Results

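The 8 mature miRNA arms described here come from 5 mouse hairpins: mmu-miR-31-5p and mmu-miR-31-3p, mmu-miR-489-3p, mmu-miR-34a-5p, mmu-miR-34b-5p and mmu-miR-34b-3p, and mmu-miR-34c-5p and mmu-miR-34c-3p (written below without the prefix). They were chosen by name, as miRNAs linked to satellite cell quiescence (miR-31 and miR-489) and to p53-dependent stress (miR-34), out of 1915 mature miRNAs counted in each library. Of these, 932 were seen at all in the 9 libraries and 304 were expressed, meaning that some library held more than 32 counts. Only 3 of the 8 arms were expressed (miR-31-5p, miR-34a-5p and miR-34c-5p), and the other 5 lay below this minimum.

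Small RNA of the tibialis anterior (TA) muscle was sequenced in 4 control mice and 5 tumour-bearing mice of a cancer cachexia model (LLC mice). The latter received 750000 cells of Lewis lung carcinoma, a mouse tumour line, under the skin of each flank. Their muscles were taken 22 days later, and the control mice received PBS alone (100 µl in each flank). The labels give strain C57BL/6J and an age of 10 weeks, while the series' design text gives male C57BL/10 mice of 8 weeks. The control libraries are called C1 to C4 and the LLC libraries L1, L2, L3, L5 and L6, while L4 was not analysed here. A control library held 4992339 to 6548379 counts and an LLC library 6216566 to 7833161. Levels are given as CPM, the count in a library scaled to 1000000 counts after edgeR's TMM correction, with mean ± SD over mice.

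A miRNA pairs with its target mRNAs mainly through its seed, bases 2 to 8 from the 5′ end, and one hairpin can give a 5p and a 3p arm. Satellite cells are the resting stem cells of muscle. In them, miR-31 holds back translation of the mRNA of the myogenic factor Myf5, and miR-489 restrains the proliferation factor Dek, so both are known as miRNAs of the quiescent state. The miR-34 family is transcribed from p53 target genes and represses cell cycle and survival genes such as cyclins, Bcl2 and Sirt1.

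The mature sequences show which arms share a seed and therefore a set of possible targets. RefSeq (GRCm38.p6) sequences were matched for 7 of the 8 arms, and miR-34c-5p is given by name. Each is written 5′ to 3′ with the seed in capitals.
miR-31-5p: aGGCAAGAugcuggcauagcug
miR-31-3p: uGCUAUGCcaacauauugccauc
miR-489-3p: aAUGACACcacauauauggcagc
miR-34a-5p: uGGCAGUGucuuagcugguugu
miR-34b-5p: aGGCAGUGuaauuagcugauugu
miR-34b-3p: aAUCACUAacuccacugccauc
miR-34c-3p: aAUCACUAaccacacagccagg
Among the 7 arms with a sequence, the seed GGCAGUG was shared by miR-34a-5p and miR-34b-5p, and AUCACUA by miR-34b-3p and miR-34c-3p. The seed of miR-34c-5p was not compared, because its sequence was not matched. Among the 1623 mature miRNAs of the tables with a sequence, 4 (0.246%) carry GGCAGUG, and the 2 that are not miR-34 arms are miR-449a-5p and miR-449c-5p. They had 6 and 0 counts in all 9 libraries together. Among the same 1623, no other miRNA carries either seed of miR-31. The seed of miR-489-3p is carried by 1 other of the 1623, miR-425-5p, which was noticed when the seeds were compared.

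For miR-425-5p 5191 counts were found in the 9 libraries, against 169 for miR-489-3p, which was thus 3.15% of the counts with this seed. The level of miR-425-5p was 87.0 ± 5.97 CPM (SD, n = 4) in the control mice and 86.9 ± 11.4 CPM (SD, n = 5) in the LLC mice. Its log2-fold change was -0.0011 (95% interval -0.28 to 0.27, adjusted p = 0.998 in edgeR's quasi-likelihood test).

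The hairpins lie at 4 places in the GRCm38 genome. Mir31 (chromosome 4, 88910557 to 88910662, minus strand) overlaps an exon of the lincRNA gene AL805899.1. Mir489 (chromosome 6, 3721897 to 3722003, minus strand) lies in an intron of Calcr, the calcitonin receptor gene, whose product is a surface marker of quiescent satellite cells. The hairpin Mir653 lies 511 bases away in the same intron. Mir34a (chromosome 4, 150068454 to 150068555, plus strand) overlaps an exon of Gm37795, a transcript to be experimentally checked in the annotation. Mir34b (chromosome 9, 51103562 to 51103645) and Mir34c (51103034 to 51103110) lie 451 bases apart on the minus strand, in an intron of Btg4, which is on the opposite strand.

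All 8 arms were rare among the counts from the TA muscle. Together they held 0.00215 to 0.00423% of the counts of a library, from 143 counts in L5 to 331 in L6. Averaged over the 9 libraries before TMM, miR-34c-5p had 15.0 CPM (rank 207 of the 304 expressed miRNAs), miR-34a-5p 8.96 CPM (rank 236) and miR-31-5p 5.95 CPM (rank 259). The median expressed miRNA had 34.8 CPM and the lower quartile was 10.4 CPM, so the first of these lay above the lower quartile and the other 2 below it. The remaining arms followed with 2.88 CPM for miR-489-3p, 0.948 CPM for miR-34b-5p, 0.598 CPM for miR-34b-3p, 0.295 CPM for miR-31-3p and 0.260 CPM for miR-34c-3p. The 7 printed arms have 22 or 23 bases, and these levels are not divided by length.

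**Figure D1:**
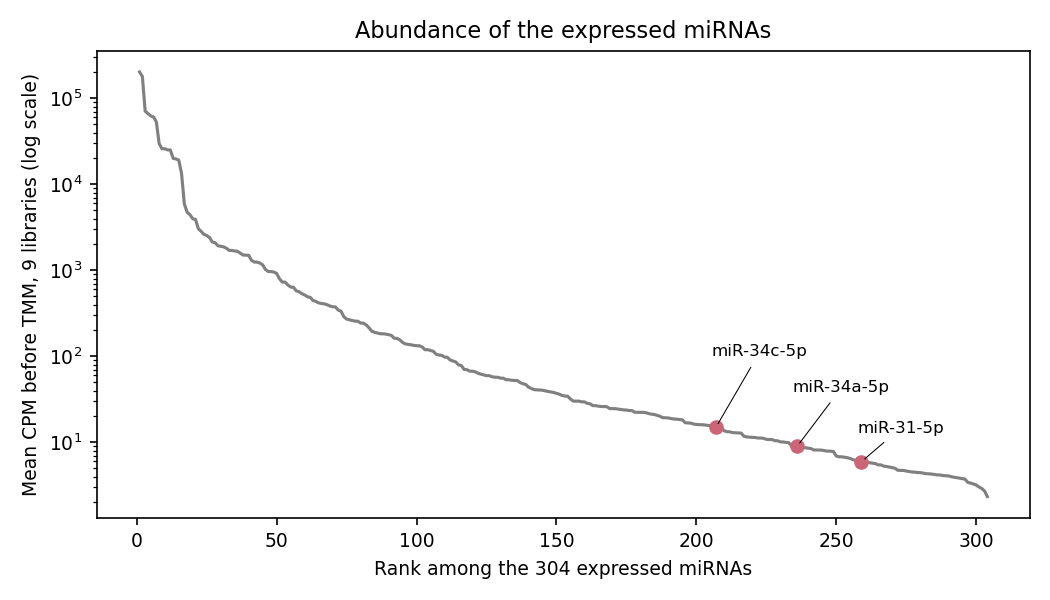
Mean CPM before TMM over the 9 libraries (vertical axis, log scale) of the 304 expressed miRNAs, ordered by rank (horizontal axis). The points mark miR-34c-5p at rank 207, miR-34a-5p at 236 and miR-31-5p at 259, all in the lower part of the curve.

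The order of the upper levels held in nearly every library, and that of the lower ones did not. Counts of miR-34c-5p exceeded those of miR-34a-5p in 8 of 9 libraries, those of miR-34a-5p exceeded miR-31-5p in 9 of 9, and those of miR-31-5p exceeded miR-489-3p in 9 of 9. For miR-489-3p over miR-34b-5p it was 8 of 9, with 1 equal. Below this the order did not hold across libraries: the higher mean was also the higher count in 5 of 9 for miR-34b-5p over miR-34b-3p, in 6 of 9 (2 equal) for miR-34b-3p over miR-31-3p, and in 3 of 9 (1 equal) for miR-31-3p over miR-34c-3p. The log2 ratio of miR-34b-5p to miR-34b-3p was 0.49 ± 1.00 (SD, n = 9), that of miR-34b-3p to miR-31-3p 1.00 ± 0.87 and that of miR-31-3p to miR-34c-3p 0.05 ± 1.28.

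**Figure D2:**
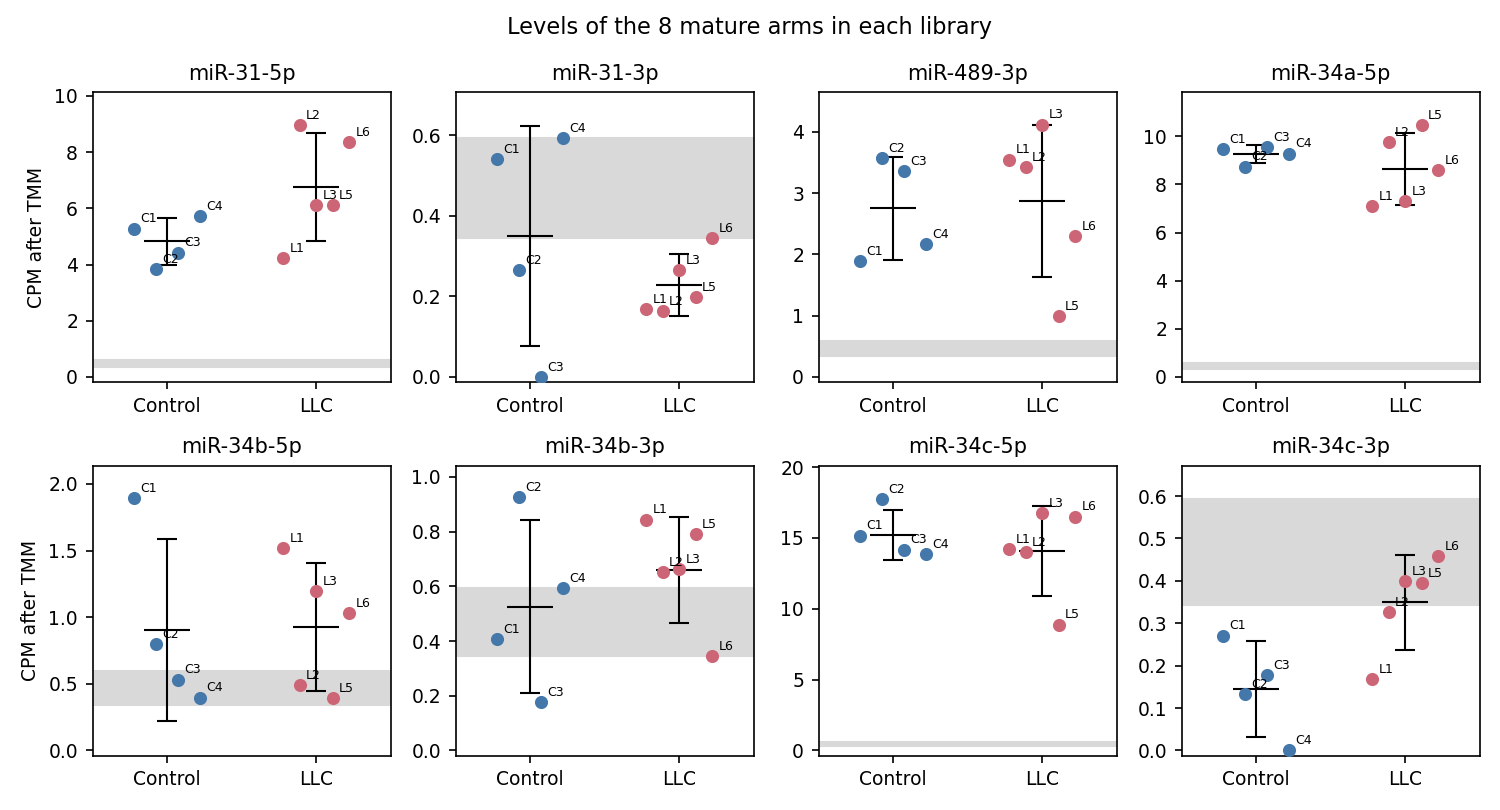
CPM after TMM (vertical axis, its range differs between panels) of each arm in the 4 control (blue) and 5 LLC (red) libraries, with mean and SD as black bars. The grey band is the level of 3 counts in a library, 0.344 to 0.593 CPM. The points of miR-31-3p and miR-34c-3p lie in or under the band, and the groups overlap in every panel.

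Each expressed miRNA was compared between LLC and control mice to find those that differ in the wasting muscle. A call needed a 1.5-fold change and a Benjamini-Hochberg adjusted p no larger than 0.05 by the quasi-likelihood test of edgeR. None of the 3 expressed arms was called, and neither was any other of the 304 expressed miRNAs (0%). DESeq2's Wald test called 8 of them (2.63%), and edgeR with no filter called 22 of the 932 miRNAs with a count (2.36%), none of them among the 8 arms. At an unadjusted p of at most 0.05, 50 of the 304 passed edgeR's test (16.4%) and again none of the 3 arms. With no filter 91 of 932 passed at this level (9.76%), among them miR-31-5p. The mean was higher in the LLC mice for 1 of the 3 arms by the fitted change, against 46.4% of the 304. In bulk muscle, fewer cells of a type and less RNA per cell cannot be told apart, and the labels name no separate cultures or pools, so each library is taken as 1 mouse.

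Of the 8 arms, miR-31-5p, the Myf5 repressor, had the largest difference among those expressed, with a higher mean in the LLC mice that did not pass the test. Its CPM was 5.28 in C1, 3.84 in C2, 4.43 in C3 and 5.73 in C4. In the LLC mice it was 4.22 in L1, 8.96 in L2, 6.11 in L3, 6.12 in L5 and 8.37 in L6. Thus 4 of 5 LLC mice lay above every control mouse, with L2 and L6 highest, while L1 lay within the control range. With library totals alone 3 of 5 lay above the controls, L5 lay within their range and L1 below it. The means were 4.82 ± 0.847 CPM (SD, n = 4) and 6.76 ± 1.92 CPM (SD, n = 5), and a library held 25 to 73 counts.

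The log2-fold change of miR-31-5p was 0.50 (standard error 0.248, 95% interval -0.02 to 1.03, which is 0.983- to 2.04-fold). Its p was 0.0602 before adjustment and 0.296 after it in edgeR's test over the 304 miRNAs. Its log2-fold change was the 21st from the highest, sign included, and its p the 60th from the smallest of the 304. The two-sided exact permutation test of log2 CPM gave p = 0.0952, adjusted p = 0.402 over the 304 expressed miRNAs, of which 12.5% reached 0.05 before adjustment. The smallest p that the 126 assignments of libraries to groups allow is 0.00794. The unadjusted p was 0.0421 in DESeq2 (adjusted p = 0.261) and 0.0271 in edgeR with no filter (adjusted p = 0.372). The edgeR interval lay above 0 with no filter (0.06 to 1.02) and with RLE factors (0.03 to 1.06). It also did with at least 10 counts per library throughout (0.01 to 1.02). The same held without C4 (0.02 to 1.18), without L1 (0.13 to 1.13) and without L3 (0.0039 to 1.11). The interval included 0 in the other edgeR settings, among them library totals alone (-0.23 to 0.98) and the replicate block (-0.36 to 1.32). Over all settings the adjusted p ranged from 0.200 to 0.706 in edgeR, DESeq2 and limma. The spread between LLC mice (coefficient of variation 28.4%) was larger than that from counting alone (14.7%). In the control mice both were alike, at 17.6 and 18.1%.

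The other arm, miR-31-3p, was at the limit of detection. Its counts were 4, 2, 0 and 3 in C1 to C4 and 1, 1, 2, 1 and 3 in L1, L2, L3, L5 and L6. Only C1 exceeded 3 counts, and the 0 in C3 allows up to 3 counts, or 0.531 CPM. The 5p arm held 352 of the 369 counts of the Mir31 hairpin, which is 95.4% (95% Wilson interval 92.7 to 97.1%). This share was 93.7 ± 4.40% (SD, n = 4) in the control and 96.6 ± 0.970% (SD, n = 5) in the LLC mice. It was given no test, since 0 of the 74 hairpins with both arms expressed is one of those described here. Intervals and limits of this kind cover counting error only, because the reads carry no molecular identifiers and so do not count molecules one by one.

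For miR-489-3p, the Dek repressor from the Calcr intron, the groups had nearly the same mean, 2.75 ± 0.841 CPM (SD, n = 4) in the control and 2.87 ± 1.24 CPM (SD, n = 5) in the LLC mice. The counts were 14, 27, 19 and 11 in C1 to C4 and 21, 21, 31, 5 and 20 in L1, L2, L3, L5 and L6. Its highest library, L3, with 31 counts, stayed just under the expression minimum. In CPM the control mice ranged from 1.90 to 3.58, L3 lay above all of them with 4.12 and L5 below all of them with 0.987. The exact permutation test of log2 CPM gave p = 0.984. Fitted in edgeR with no filter, its log2-fold change was 0.12 (standard error 0.309, 95% interval -0.49 to 0.72, adjusted p = 0.907), an interval that reaches a 1.5-fold increase (0.58 on the log2 scale). The 5p arm, miR-489-5p, had 0 counts in each library.

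The arms of Mir653, from the same Calcr intron, were also near 0. For miR-653-5p 1 count was found in all libraries, in L2. For miR-653-3p the counts were 1, 2, 1 and 1 in C1 to C4 and 0, 0, 0, 0 and 1 in the LLC libraries. In CPM the groups did not overlap for this arm, which was the case for 25 of the 932 miRNAs with a count (2.68%), but no library passed 3 counts.

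The miR-34 family was present mainly as miR-34c-5p and miR-34a-5p. Of the 1460 counts on the 3 5p arms, 881 (60.3%, 95% Wilson interval 57.8 to 62.8%) belonged to miR-34c-5p, 522 (35.8%, 33.3 to 38.2%) to miR-34a-5p and 57 (3.90%, 3.03 to 5.02%) to miR-34b-5p. The summed level of the 3 arms was 25.4 ± 1.80 CPM (SD, n = 4) in the control and 23.6 ± 2.51 CPM (SD, n = 5) in the LLC mice. Although Mir34b and Mir34c lie side by side, miR-34c-5p had 15.5 times the counts of miR-34b-5p, from 8 times in C1 to 35 times in C4. As the sequence of miR-34c-5p was not matched, whether reads could be counted for both of these arms was not tested.

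The level of miR-34a-5p, whose hairpin lies apart from the Mir34b and Mir34c pair, was even among control mice. Its CPM was 9.48 in C1, 8.74 in C2, 9.56 in C3 and 9.29 in C4. In the LLC mice it was 7.09 in L1, 9.77 in L2, 7.31 in L3, 10.5 in L5 and 8.60 in L6. The LLC values enclosed those of the control group, with L1, L3 and L6 below every control mouse and L2 and L5 above. This order rested on TMM: with library totals alone no LLC mouse lay above the control range of 9.11 to 10.8 CPM, and L1, L3 and L5 (7.97 CPM) lay below it. The coefficient of variation was 3.98% in the control mice, below the 13.0% of counting alone, and 17.1% in the LLC mice, against 13.2%. The means were 9.27 ± 0.369 CPM (SD, n = 4) and 8.65 ± 1.48 CPM (SD, n = 5).

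For miR-34a-5p the fitted log2-fold change was -0.10 (standard error 0.183, 95% interval -0.49 to 0.28, adjusted p = 0.766 in edgeR). The interval corresponds to 0.710- to 1.22-fold and did not reach a 1.5-fold change in either direction. With library totals alone in place of TMM it was -0.74 to 0.22, and with a block for the replicate number -0.78 to 0.36, which both reach a 1.5-fold decrease. The exact permutation test gave p = 0.397 (adjusted p = 0.618 over the 304 miRNAs).

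For miR-34c-5p, the most abundant of the 8 arms, the control libraries had 15.2, 17.7, 14.2 and 13.8 CPM (C1 to C4). The LLC libraries had 14.2 (L1), 14.01 (L2), 16.7 (L3), 8.88 (L5) and 16.5 CPM (L6). Only L5 lay outside the control range, below it. With library totals alone L1 lay below it as well. The means were 15.2 ± 1.77 CPM (SD, n = 4) and 14.1 ± 3.16 CPM (SD, n = 5), and the log2-fold change was -0.11 (standard error 0.189, 95% interval -0.51 to 0.29, adjusted p = 0.766 in edgeR). This interval, 0.702- to 1.23-fold, did not reach a 1.5-fold change either, but it did reach a decrease of that size with library totals alone (-0.77 to 0.30) and without C3 (-0.60 to 0.32). Without L5 the log2-fold change was 0.01 (95% interval -0.32 to 0.35, adjusted p = 0.968 in edgeR). The exact permutation test on all 9 libraries gave p = 0.643.

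L5 thus had the lowest miR-34c-5p and miR-489-3p of the 9 libraries, with or without TMM. It was the only library with more counts of miR-34a-5p (53) than of miR-34c-5p (45). There miR-34a-5p made up 53% of the counts on the 3 miR-34 5p arms (95% Wilson interval 43.3 to 62.5%), against 28.9 to 40.3% in the other 8 libraries. The Wilson intervals of C3, C4 and L2, which reach 47.8, 48.5 and 48.3%, overlap that of L5, and those of the remaining libraries do not. L5 also had the lowest TMM factor (0.762, against 0.876 to 1.15 in the others), which does not enter these shares. Over the groups the share of miR-34a-5p was 36.7 ± 3.55% (SD, n = 4) in the control and 37.2 ± 9.78% (SD, n = 5) in the LLC mice, a difference well within the spread between mice.

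**Figure D3:**
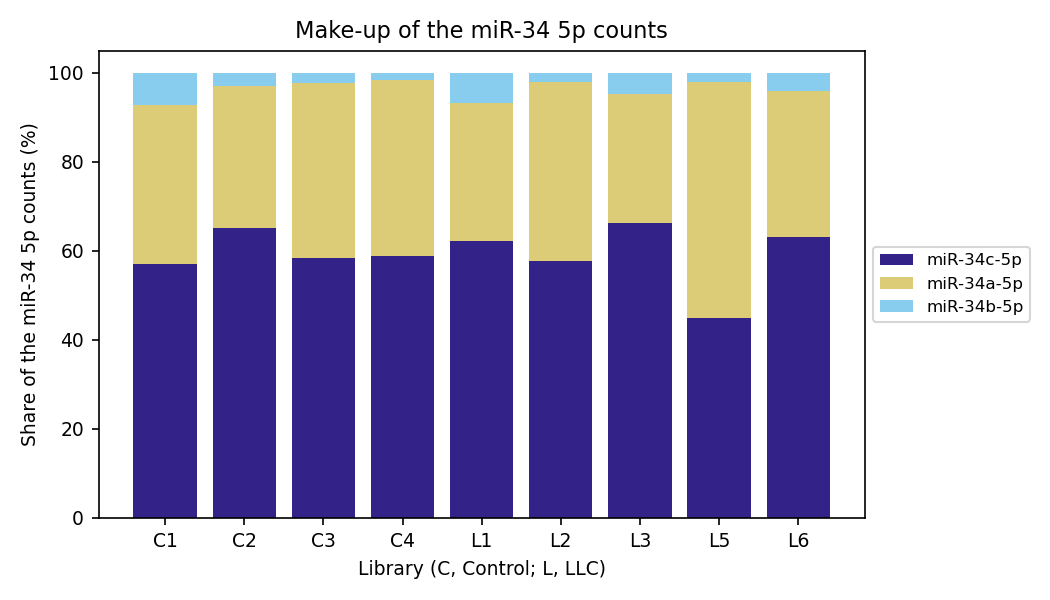
Share of the counts on the 3 miR-34 5p arms (vertical axis, %) held by miR-34c-5p, miR-34a-5p and miR-34b-5p in each library (C, control; L, LLC). In L5 miR-34a-5p holds 53%, against 28.9 to 40.3% in the other 8 libraries.

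The remaining miR-34 arms were low. For miR-34b-5p the counts were 14, 6, 3 and 2 in C1 to C4 and 9, 3, 9, 2 and 9 in L1, L2, L3, L5 and L6, with a log2-fold change of 0.04 in edgeR with no filter (95% interval -0.91 to 0.99). For miR-34b-3p they were 3, 7, 1 and 3 in the control and 5, 4, 5, 4 and 3 in the LLC libraries, with a log2-fold change of 0.27 (95% interval -0.91 to 1.45). Both intervals reach a 1.5-fold change on either side. In the control mice the coefficient of variation of miR-34b-5p was 75.4%, against 40.0% from counting alone, and that of miR-34b-3p 60.3%, against 53.5%. Mir34b was the hairpin with the most even arms, with 57 of 92 counts on the 5p arm (62.0%, 95% Wilson interval 51.7 to 71.2%). On Mir34a the 5p arm held 522 of 525 counts (99.4%, 98.3 to 99.8%) and on Mir34c 881 of 897 (98.2%, 97.1 to 98.9%).

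The star arm miR-34c-3p had 2, 1, 1 and 0 counts in C1 to C4 and 1, 2, 3, 2 and 4 in L1, L2, L3, L5 and L6. The exact permutation test of its log2 CPM gave p = 0.0397 (adjusted p = 0.752 over the 932 miRNAs with a count), with 4 of 5 LLC mice above every control mouse (3 of 5 with library totals alone). Only L6 exceeded 3 counts, and the p moved from 0.0286 to 0.107 over the alternatives, so no fold change is given. The sequences of miR-34b-3p and miR-34c-3p are identical in their first 10 bases and at 17 of 22 positions. The authors' mapping allowed no mismatch in the first 8 bases and kept all best alignments. A read that ends before the first difference, at base 11, could thus be counted for both. Because the stated limit covers only the first 8 bases, longer reads may be counted for both as well. How many reads are was not tested.

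**Figure D4:**
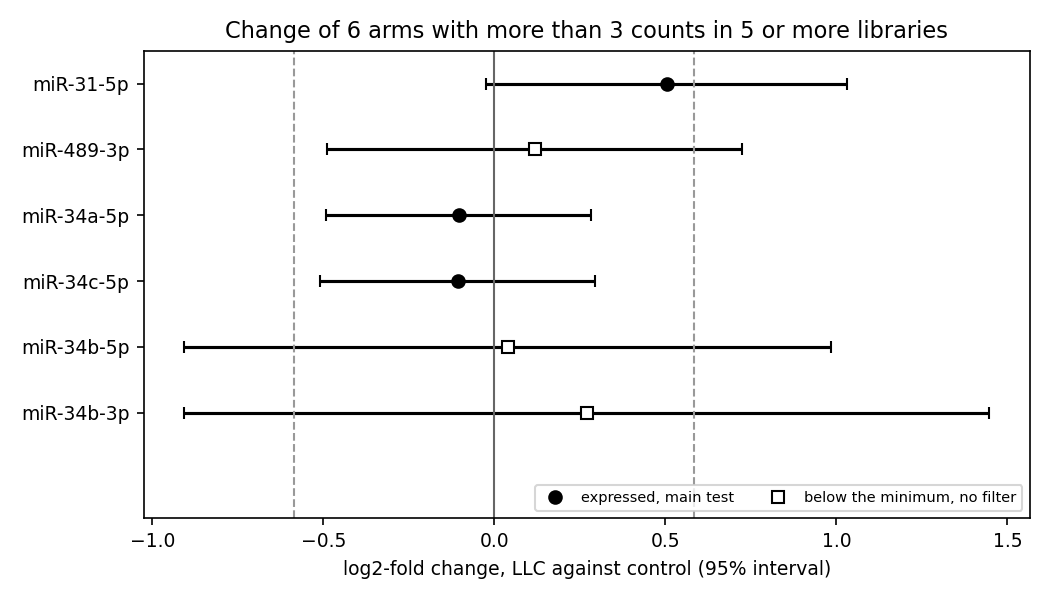
Log2-fold change in LLC against control mice (horizontal axis) with its 95% interval from edgeR, for the 6 arms with more than 3 counts in at least 5 libraries. Filled circles are the expressed arms, open squares the arms fitted with no filter, and dashed lines mark a 1.5-fold change. Every interval crosses 0, and those of miR-34a-5p and miR-34c-5p stay between the dashed lines.

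The patterns of the 3 expressed arms over the 9 libraries were set against those of the 301 other expressed miRNAs. Likeness was the root mean square difference between the deviations of log2 CPM from each miRNA's mean, so that 0 is the same pattern. The nearest to miR-31-5p was miR-223-3p, a miRNA of myeloid cells, at 0.238, followed by miR-3098-5p at 0.263 and miR-335-3p at 0.283, where the median miRNA was at 0.457. For miR-34a-5p they were miR-337-3p (0.123), miR-486a-3p (0.137) and miR-486b-3p (0.139), with a median of 0.306. For miR-34c-5p they were miR-3068-3p (0.145), miR-369-5p (0.148) and miR-450b-5p (0.150), with a median of 0.351. Among the arms themselves, which were not picked for likeness, the difference was 0.371 between miR-31-5p and miR-34a-5p, 0.389 between miR-34a-5p and miR-34c-5p and 0.489 between miR-31-5p and miR-34c-5p.

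Leukocyte miRNAs were set beside miR-31-5p. All 5 markers (miR-223-3p, miR-142a-3p, miR-142a-5p, miR-150-5p and miR-155-5p) were expressed, 4 with a higher and 1 with a lower fitted level in LLC (2 and 3 with library totals alone). Their summed level was 800, 786, 691 and 779 CPM in C1 to C4 and 583, 742, 705, 638 and 689 CPM in L1, L2, L3, L5 and L6. This gave 764 ± 49.7 CPM (SD, n = 4) in the control and 671 ± 62.2 CPM (SD, n = 5) in the LLC mice, and the most abundant, miR-150-5p, was at 492 ± 43.8 and 377 ± 23.1 CPM. For miR-223-3p the values were 20.8 ± 1.89 and 33.9 ± 8.31 CPM (log2-fold change 0.70, adjusted p = 0.0936 in edgeR). DESeq2 called this marker, as it did 2.63% of all expressed miRNAs. So did edgeR with no filter, which called 2.36% of the miRNAs with a count. For miR-150-5p the log2-fold change was -0.38 (adjusted p = 0.100 in edgeR), and neither DESeq2 nor edgeR with no filter called it. The part of leukocytes in the level of miR-31-5p was not tested.

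Other miRNAs linked to satellite cells and myogenesis were described as a list of 18, of which 16 were expressed. The list includes miR-133a-3p, miR-1a-3p and miR-486a-5p, which muscle fibres also express. In the LLC mice 5 had a higher and 11 a lower fitted level, with a median log2-fold change of -0.17 (-0.02 over all 304 expressed miRNAs), and 0 were called by edgeR, DESeq2 or edgeR with no filter. With library totals alone, which move the median of all expressed miRNAs to -0.17, they were 2 and 14. At an unadjusted p of at most 0.05, 0 of the 16 were higher (5.26% of all expressed miRNAs) and 3 were lower (11.2%). These 3 were miR-497a-5p, which promotes quiescence with miR-195a-5p, miR-127-3p and miR-322-5p. For miR-497a-5p the control mice had 287 to 310 CPM and the LLC mice 207 to 240 CPM, without overlap of the groups, as for 18 of the 304 expressed miRNAs (5.92%). The log2-fold change of -0.43 (95% interval -0.64 to -0.21) had an adjusted p of 0.0812 in edgeR. For its partner miR-195a-5p it was 0.04 (95% interval -0.26 to 0.34, adjusted p = 0.882 in edgeR).

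The level of miR-127-3p was 4444 ± 134 CPM in the control and 3454 ± 585 CPM in the LLC mice, and that of miR-322-5p 434 ± 58.2 and 351 ± 63.5 CPM (adjusted p = 0.214 and 0.296 in edgeR). Satellite cell miR-708-5p, as rare as miR-31-5p, was at 6.74 ± 1.20 and 5.35 ± 1.78 CPM (log2-fold change -0.33, adjusted p = 0.486 in edgeR). Of the 7 atrophy-linked miRNAs, 4 were higher and 3 lower in edgeR (5 and 2 with RLE factors or DESeq2). This list had a median log2-fold change of 0.20 (0.04 with library totals alone), and 0 were called in edgeR. It included miR-29b-3p, the only one of the 7 with an unadjusted p of at most 0.05 (16.4% of all expressed miRNAs), at 0.73 (adjusted p = 0.0812 in edgeR, called by DESeq2, as were 2.63% of all, and by edgeR with no filter, as were 2.36%), and miR-486b-5p, whose counts equal those of miR-486a-5p.

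Of the miRNAs that mark skeletal muscle, miR-133a-3p had 20321 ± 3384 CPM in the control and 18718 ± 1381 CPM in the LLC mice, and miR-133b-3p 4619 ± 731 and 4187 ± 511 CPM. The satellite cell and slow fibre miRNA miR-206-3p was nearly absent from the tables, with 5 counts in all 9 libraries. The muscle marker miR-1a-3p had 20.9 ± 2.35 and 17.4 ± 6.44 CPM. Before TMM it ranked 189 of the 304 expressed miRNAs, against rank 14 for miR-133a-3p. How far library preparation and mapping shape such levels was not tested. The 3 expressed markers had a median log2-fold change of -0.14 (-0.30 with library totals alone and -0.22 with the replicate block).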

How the data were processed

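Small RNA libraries of the TA muscle (4 control and 5 LLC mice) were sequenced with single-end reads. The authors mapped the reads to miRBase version 21 with Bowtie (no mismatch in a seed of 8 bases, all best alignments kept) and deposited whole, unnormalized counts per mature miRNA and library. Per the labels, FastQC, HTSeq and DESeq2 were also used.

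Counts of all miRNAs past the minimum of 32 were fitted with edgeR 4.0.16 under R 4.3.3, by glmQLFit and glmQLFTest on TMM factors, and p-values were adjusted by Benjamini-Hochberg over the 304 expressed miRNAs. The standard error is the log2-fold change divided by the square root of F. Exact permutation tests used log2 CPM (prior count 2), two-sided, over all 126 assignments of libraries to groups. The fits were tested on simulated counts. Alternatives were RLE factors, library totals alone or without the 5 most abundant miRNAs, DESeq2 1.42.0, limma 3.58.1 with voom, the replicate block, no filter, at least 10 counts per library throughout, prior counts of 0.5 and 5, and leaving out each library. Limits of detection are 3 counts per library, 0.383 to 0.601 CPM before TMM. Sequences and hairpins are from RefSeq (GRCm38.p6) and host genes from GENCODE on GRCm38. The miRNAs named are the 8 arms, their partner arms and hairpin neighbours, miRNAs with the same seeds, the lists below and the 3 nearest in pattern to each expressed arm. The lists were satellite cell, p53-linked and atrophy-linked miRNAs, the miR-449 family, and markers of muscle, leukocytes, erythroid cells, endothelium, epithelium and ciliated cells, and nerve. The miRNAs, lists and tests were chosen with earlier results of these data known. miR-425-5p was added when the seeds were compared. p-values measure the spread between these libraries.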

Additional observations from a re-analysis of the deposited data

Results flagged for a closer look

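Among 32 groups of values checked (the 8 arms, the total counts and the shares, in each group of mice), 1 held a library far from the others, where chance flags about 1 in 20. The 5p share of the Mir34a hairpin was 98.6% in C1 and 100% in the other 3 control libraries. The gap is 1 count of miR-34a-3p in C1. Because the other 3 values are tied at 100%, any such count gives the largest possible gap, so the rate of 1 in 20 does not apply here.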

How the results depend on the processing

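The number of expressed miRNAs called was 0 in edgeR's test and also with RLE factors, library totals alone or without the 5 most abundant miRNAs, limma with voom, at least 10 counts per library throughout and the replicate block. It was 8 in DESeq2, and 0 to 8 when a library was left out (1 without L1, 8 without L3). With no filter 22 of all 932 miRNAs with a count were called. None of the 3 expressed arms was called in any of these settings. The edgeR log2-fold change of miR-31-5p stayed between 0.37 and 0.63 (adjusted p from 0.200 to 0.706) and that of miR-34a-5p between -0.26 and -0.03. With a library left out, that of miR-34c-5p lay between -0.16 and 0.011, positive without L5. The log2 CPM difference of miR-34b-5p (0.08) was -0.027 with library totals alone. With a library left out the differences lay between -0.52 and 0.0016 for miR-31-3p, -0.17 and 0.27 for miR-489-3p, -0.13 and 0.42 for miR-34b-5p and -0.21 and 0.014 for miR-34c-5p, so these 4 had no firm direction; the cause was not tested. That of miR-34b-3p (0.27) stayed positive, from 0.03 without C3 to 0.49 without C2, and was 0.15 with library totals alone. The permutation p of miR-31-5p was 0.0286 without L1 (0.0286 to 0.341 over the alternatives). Of 187 recomputed fold changes, differences and arm shares of the 8 arms, 15 changed sign, among them 3 differences in the 5p share (-0.62 to 0.023 percentage points for Mir34a and -11.9 to 2.23 for Mir34b with a library left out). The mean limit of 3 counts was 0.468 CPM before and 0.473 CPM after TMM.

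C1 to C3 and L1 to L3 share replicate numbers, though each is a mouse of its own. Deviations of libraries with the same number had correlations of -0.23, -0.09 and -0.25, and 0 of 6 correlated best with its own number. With the replicate block 15 miRNAs had an unadjusted p of at most 0.05, against 50 without it, and the log2-fold changes were 0.48 for miR-31-5p, -0.21 for miR-34a-5p and -0.07 for miR-34c-5p. The arms with the fewest counts, miR-31-3p and miR-34c-3p, had 0 to 4 per library.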

Other observations

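The p53-linked miRNAs other than the miR-34 family gave a list of 11, of which 9 were expressed. The fitted level in the LLC mice was higher for 3 and lower for 6 (4 and 5 with RLE factors or DESeq2, 2 and 7 with library totals alone), with a median log2-fold change of -0.05 (-0.02 over all expressed miRNAs), and 0 of the 9 had an unadjusted p of at most 0.05 in edgeR (16.4% of all expressed miRNAs). The most abundant was miR-143-3p, at 53250 ± 7087 CPM (SD, n = 4) in the control and 67463 ± 16307 CPM (SD, n = 5) in the LLC mice (log2-fold change 0.34, adjusted p = 0.320 in edgeR). For miR-192-5p the log2-fold change was 0.14 (adjusted p = 0.505) and for miR-145a-5p -0.10 (adjusted p = 0.641, edgeR).

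The miR-449 family, which marks ciliated epithelium, had 1 of 5 arms with a count, miR-449a-5p with 6. Among the miRNAs with a sequence, miR-449a-5p and miR-449c-5p share the seed of miR-34a-5p and miR-34b-5p. Of 7 epithelial and ciliated cell markers 0 were expressed, and their summed level was 4.76 ± 1.22 CPM (SD, n = 4) in the control and 4.78 ± 1.88 CPM (SD, n = 5) in the LLC mice. Of 3 nerve markers miR-9-5p was expressed, at 5.25 ± 1.33 and 5.02 ± 1.67 CPM. The summed level of the 3 erythroid markers was 259 ± 49.3 and 152 ± 53.2 CPM, each with a lower mean in the LLC mice, led by miR-451a. All 3 were lower at an unadjusted p of at most 0.05 in edgeR (11.2% of all expressed miRNAs) and 0 were called. DESeq2 called miR-144-5p and miR-451a (2.63% of all), and edgeR with no filter called all 3 (2.36% of all miRNAs with a count). The 2 endothelial markers, led by miR-126a-5p, had 29585 ± 3392 and 27458 ± 2220 CPM in sum. The other, miR-126a-3p, had 2867 ± 159 and 2312 ± 415 CPM (log2-fold change -0.31, adjusted p = 0.284 in edgeR). Only this 1 was lower at an unadjusted p of at most 0.05 in edgeR (11.2% of all expressed miRNAs).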
